A study of Mus musculus with 6 samples.

Results

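Histone acetyltransferases are the enzymes that move the acetyl group of acetyl-CoA onto lysines of histones. The 10 genes described here, Ep300, Crebbp, Kat2a, Kat2b, Kat5, Kat6a, Kat6b, Kat7, Kat8 and Hat1, were picked by symbol from the 13883 genes of the deposited table, and all 10 were present and tested. RNA was sequenced from CD8 T cells taken from spleen and lymph nodes (wild-type mice), activated through CD3 and CD28. The cells were kept overnight in 20 mM NaCl, the control, or in 20 mM of a compound that the labels call DAHB, with 3 samples of 100000 cells in each group. No age, sex or number of mice is stated in the labels, which also do not say whether samples are from different animals or cultures; p-values therefore describe the spread among these samples, which may be technical.

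As background, acetylation neutralises the charge of histone tails and makes docking sites for bromodomain proteins, and it marks promoters and enhancers in use. Each enzyme draws on the nuclear pool of acetyl-CoA and most work inside a larger complex that sets where they act. The members fall into 4 groups: the coactivator pair p300 and CBP (Ep300, Crebbp); the GCN5 family (Kat2a, Kat2b) of the SAGA and ATAC complexes; the MYST family (Kat5, Kat6a, Kat6b, Kat7, Kat8) of the TIP60, MOZ, MORF, HBO1, MSL and NSL complexes; and Hat1, which acetylates newly made histones before they enter chromatin. In activated CD8 T cells such enzymes act with the transcription factors that open effector gene loci.

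The libraries held between 31055613 and 56007582 reads, and each member had between 197 and 13189 reads in a library. The 7 CD8 T cell markers were all present, with summed normalised counts of 42899 to 43637 in NaCl and 49995 to 52957 in DAHB. Their log2 fold changes differed: Cd8a and Cd8b1 were at 0.59 and 0.51, Trac and Cd3d at -0.31 and -0.20. Cd3e, Cd3g and Cd247 were between 0.07 and 0.13. Of 6 B cell markers 1, Cd79b, was in the table, at 118 to 149 in NaCl and 549 to 623 in DAHB, and the 6 myeloid markers summed to 522 to 1026 and 900.0 to 1242. Log2 fold changes of the myeloid markers ran from -0.44 for Cd14 to 0.67 for Lyz2. The 4 dendritic cell markers gave 2 genes, with sums of 441 to 519 and 336 to 348. Of these, mean Itgax went from 12.3 to 27.5 and mean Zbtb46 from 462 to 316. The 3 CD4 T cell markers gave 2, with sums of 58.6 to 72.9 and 100.99 to 139. Mean Cd4 went from 11.6 to 65.5, and mean Cd40lg from 54.5 to 57.5. Of 3 NK cell markers only Eomes, which effector CD8 T cells also express, was present, at 377 to 410.1 and 1267 to 1361, and of 4 erythroid markers none was listed. The part of these other cells in the results below was not tested, and in bulk RNA fewer cells of a type and less RNA per cell cannot be told apart.

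The mRNAs of 8 of the 10 acetyltransferases were lower in DAHB-treated cells and none was higher (limma-trend, Benjamini-Hochberg adjusted p under 0.05 over 13804 genes). After quantile normalisation 5 were lower, and by DESeq2 and after a correction for GC content and exonic length 6 were, with none higher. Kat2b fell most, to 58.3% of its NaCl mean, followed by Crebbp, Kat2a, Kat6b and Ep300, which were at 73.9%, 75.5%, 76.0% and 80.5%. Kat5, Kat7 and Hat1 fell by less, to 84.2%, 88.4% and 91.6%, and Kat6a and Kat8 did not pass the test. Over all genes tested, 58.5% were called, 29.1% lower and 29.4% higher, and among the 7716 genes with a mean between those of the lowest and highest member, 40.7% were called lower and 25.8% higher. The median log2 fold change of the members was -0.29, against 0.00 for all genes and -0.07 for genes in the members' range of level. Values are scaled to the bulk of genes in each library, so every fall is relative to that bulk. The groups did not overlap in 6 of the 10 members, a share close to the 63.4% of all genes whose groups did not overlap; lower and without overlap were 31.6% of all genes.

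**Figure D1:**
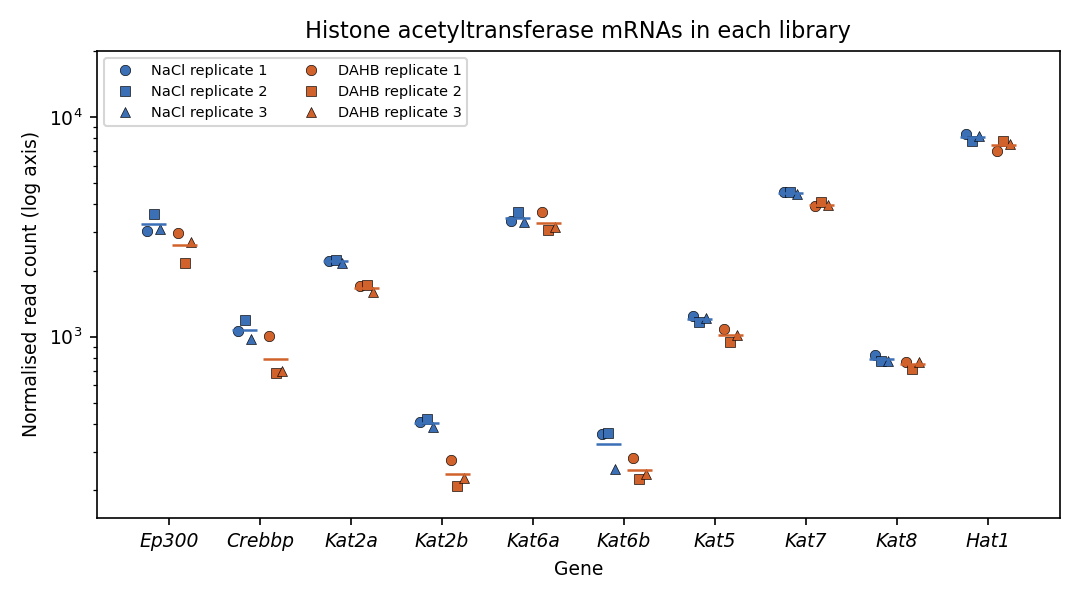
Normalised read counts of the 10 acetyltransferase genes in each library, on a log axis; blue marks are NaCl and orange marks DAHB, the shape gives the replicate and lines are group means. Kat2a, Kat2b, Kat5 and Kat7 sit lower in every DAHB library than in any NaCl library. So do Ep300 and Kat8, by a small margin, while Crebbp, Kat6a, Kat6b and Hat1 overlap.

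Per kilobase of exonic sequence, counted over all annotated exons, the members spanned more than 2 orders of magnitude in level. Hat1 led in NaCl at 2811 ± 104 normalised counts per kilobase (SD, n = 3), followed by Kat7 at 816 ± 10.6 and Kat2a at 634 ± 8.08. Kat6a, Kat5, Kat8 and Ep300 came next at 378, 344, 274 and 227. Kat2b, Crebbp and Kat6b were lowest at 83.6, 79.5 and 19.3. In that order the NaCl libraries of neighbouring genes did not overlap except for Kat2b and Crebbp. Hat1 alone made up 49.6% ± 1.38 of the summed level per kilobase in NaCl and 51.6% ± 2.31 in DAHB.

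Summed over the 10 genes, the normalised counts were 25395, 25773 and 24878 in the NaCl libraries and 22719.6, 21567 and 21850.2 in the DAHB libraries. Every DAHB library was below every NaCl library, and the DAHB mean was 87.0% of the NaCl mean.

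p300 and CBP are large, closely related coactivators that bind many transcription factors and acetylate histone H3 at enhancers and promoters. Ep300 (ENSMUSG00000055024, chromosome 15, 81585351 to 81652077, GRCm38) had normalised counts of 3024, 3603 and 3097 with NaCl and 2975, 2160.1 and 2689.9 with DAHB. The highest DAHB library lay just under the lowest NaCl library, so the groups did not overlap. Its log2 fold change was -0.32 (SE 0.096, adjusted p = 0.0102), and the call was lost without NaCl replicate 2 (-0.24, adjusted p = 0.0549), by DESeq2 (adjusted p = 0.0725) and after quantile normalisation (-0.23, adjusted p = 0.0670). Without DAHB replicate 2 the log2 fold change was -0.19 and still passed. Crebbp (ENSMUSG00000022521, chromosome 16, 4081328 to 4213997) had counts of 1067, 1189 and 973 with NaCl and 1005, 682 and 697 with DAHB. DAHB replicate 1 lay inside the NaCl range and the other two DAHB libraries were well under it. The log2 fold change was -0.46 (SE 0.12, adjusted p = 0.00545), and DESeq2 gave an adjusted p of 0.0613.

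Kat2a, also known as GCN5, and Kat2b, known as PCAF, are alternative catalytic subunits of SAGA and ATAC that acetylate histone H3. Kat2a (ENSMUSG00000020918, chromosome 11, 100704746 to 100712465) had counts of 2212, 2231 and 2176 with NaCl and 1694, 1713 and 1592 with DAHB. The libraries of each group lay close together and far from the other group. The mean of Kat2a fell from 2206 ± 28.1 to 1666 ± 64.8 (SD, n = 3). Its log2 fold change was -0.41 (SE 0.050, adjusted p = 9.50e-06) and became -0.65 after the GC and length correction. Kat2b (ENSMUSG00000000708, chromosome 17, 53566861 to 53672720) had counts of 410.1, 421 and 389.9 with NaCl and 274, 209 and 228 with DAHB. Each DAHB library was lower than each NaCl library, and the gap between the groups was wider than the spread within either. Its mean fell from 407 ± 15.8 to 237 ± 33.5, and the log2 fold change was -0.79 (SE 0.11, adjusted p = 2.38e-05); 3.94% of genes tested had a log2 fold change as low or lower. Calls on both genes held in all 17 alternatives. The log2 fold change of Kat2b was -0.68 after the GC and length correction. After quantile normalisation Kat2b was at -0.97 and Kat2a at -0.33.

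The promoters of Kat2a and Kat2b, the members with the lowest adjusted p, are shown beside that of Kat8, which did not pass the test, as the 250 bases before the RefSeq start (GRCm38.p6, gene strand, 5′ to 3′). Capitals mark matches on either strand. The motifs searched were the GC box, spelled GGGCGG, the core of sites for ETS factors, spelled CCGGAA, and the box CCAAT that is read by the factor NF-Y.
Kat2a, chr11:100712468-100712717, minus strand: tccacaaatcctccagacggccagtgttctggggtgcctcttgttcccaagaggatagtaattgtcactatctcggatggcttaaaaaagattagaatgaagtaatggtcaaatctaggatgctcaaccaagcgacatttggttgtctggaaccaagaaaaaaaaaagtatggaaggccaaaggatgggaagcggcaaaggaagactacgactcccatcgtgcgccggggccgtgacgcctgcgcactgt
Kat2b, chr17:53566721-53566970, plus strand: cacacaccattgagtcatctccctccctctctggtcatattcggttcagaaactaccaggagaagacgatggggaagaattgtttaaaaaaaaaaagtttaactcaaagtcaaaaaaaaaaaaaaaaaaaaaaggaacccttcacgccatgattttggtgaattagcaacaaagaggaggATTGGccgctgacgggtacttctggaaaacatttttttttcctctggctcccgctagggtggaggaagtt
Kat8, chr7:127912267-127912516, plus strand: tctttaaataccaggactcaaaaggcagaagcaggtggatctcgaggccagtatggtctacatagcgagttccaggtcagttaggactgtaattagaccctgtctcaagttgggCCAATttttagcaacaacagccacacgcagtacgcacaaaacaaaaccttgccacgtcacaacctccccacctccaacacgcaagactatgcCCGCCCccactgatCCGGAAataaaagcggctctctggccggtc
The Kat2a window held none of these motifs, the Kat2b window shown held 1 CCAAT box and the Kat8 window shown 1 of each. Kat2b and Kat8 each have a second annotated start further downstream, whose window is not printed; that of Kat2b held none of the motifs and that of Kat8 a GC box and a CCAAT box. Windows were found for 9 members, 13 in all, since 4 members have 2 starts, and the Kat6b windows share 235 bases, so matches were counted by gene. A GC box was in a window of 6 of the 9 members and of 35.3% of the 26994 genes with windows of that length, a CCAAT box in 5 and in 37.5%, and an ETS core in 2 and in 13.6%. TGACGTCA, the cAMP response element to which the CBP partner CREB binds, was in none of the 9 and in 1.77% of genes. GC content ranged from 40.8% in Kat2b and 48.8% in Kat2a to 84.0% in Crebbp. These matches describe letters and not binding.

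Among the MYST enzymes, Kat5 (TIP60), which acts in transcription and DNA repair, fell. Kat5 (ENSMUSG00000024926, chromosome 19, 5603014 to 5610237) had counts of 1247, 1163 and 1211 with NaCl and 1080.1, 944 and 1024 with DAHB. All DAHB libraries were under the NaCl libraries. The log2 fold change was -0.25 (SE 0.064, adjusted p = 0.00396), or -0.40 after the GC and length correction. Of its exonic bases 426, or 12.1%, overlap exons of Rnaseh2c on the opposite strand; the strand setting is not given, so reads there cannot be told apart. Rnaseh2c itself did not pass the test (log2 fold change 0.09, adjusted p = 0.256).

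Kat7 (HBO1) acetylates histones H3 and H4 and is linked to replication licensing. Kat7 (ENSMUSG00000038909, chromosome 11, 95274259 to 95310246) had counts of 4545, 4553 and 4447 with NaCl and 3927, 4083 and 3968 with DAHB. The groups were apart by more than the range of either. The log2 fold change was small, -0.18 (SE 0.042, adjusted p = 0.00246), and it was not called after quantile normalisation (-0.07, adjusted p = 0.168).

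Kat6a (MOZ) and Kat6b (MORF) are paralogues that work with BRPF scaffold proteins. Kat6a (ENSMUSG00000031540, chromosome 8, 22859535 to 22943259) had counts of 3365, 3700.2 and 3331 with NaCl and 3688, 3057 and 3149.5 with DAHB. DAHB replicate 1 lay inside the NaCl range, near its top, and the other two DAHB libraries lay under it. The log2 fold change was -0.07 with a 95% interval of -0.22 to 0.07 (adjusted p = 0.365), it turned to 0.051 after the GC and length correction and to 0.024 after quantile normalisation, and without DAHB replicate 1 it was -0.16 and passed (adjusted p = 0.0120). Kat6b (ENSMUSG00000021767, chromosome 14, 21481434 to 21672478), the least expressed member, had counts of 361, 365 and 251 with NaCl and 279.9, 224 and 238 with DAHB. NaCl replicate 3 lay within the DAHB range. Kat6b passed at -0.38 on the log2 scale (SE 0.14, adjusted p = 0.0321), but not without NaCl replicate 1 (adjusted p = 0.136) or 2 (0.135), without DAHB replicate 2 (0.0881) or 3 (0.0907), nor in the fit corrected for GC content and length (0.0893). Quantile normalisation moved it to -0.58.

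Kat8 (MOF), the catalytic subunit of the MSL and NSL complexes and a histone H4 acetyltransferase, was at 827, 775 and 774 with NaCl and 769, 714 and 766 with DAHB. The groups just missed each other, with 774 as the lowest NaCl and 769 as the highest DAHB value. Its log2 fold change was -0.08 with a 95% interval of -0.22 to 0.06 (adjusted p = 0.330; ENSMUSG00000030801, chromosome 7, 127912516 to 127925837). It was -0.044 without DAHB replicate 2, -0.047 without NaCl replicate 1 and, corrected for GC content and length, -0.13 (adjusted p = 0.0742); it was not called in any alternative. Of its exonic bases 122 overlap Prss8 on the opposite strand, which was not analysed here.

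Hat1 (ENSMUSG00000027018, chromosome 2, 71388958 to 71441622) had counts of 8338, 7773 and 8228 with NaCl and 7027, 7779 and 7499 with DAHB. NaCl replicate 2 and DAHB replicate 2 were nearly equal, so the groups overlapped. The call on its log2 difference, -0.13 (SE 0.049, adjusted p = 0.0377), was lost in 7 of 17 alternatives: without NaCl replicate 1 (adjusted p = 0.150) or 3 (0.119), without DAHB replicate 1 (0.0774) or 3 (0.0772), with the replicate number as a block (0.0731), after quantile normalisation (0.344) and after the GC and length correction, where it was -0.00 (0.925).

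**Figure D2:**
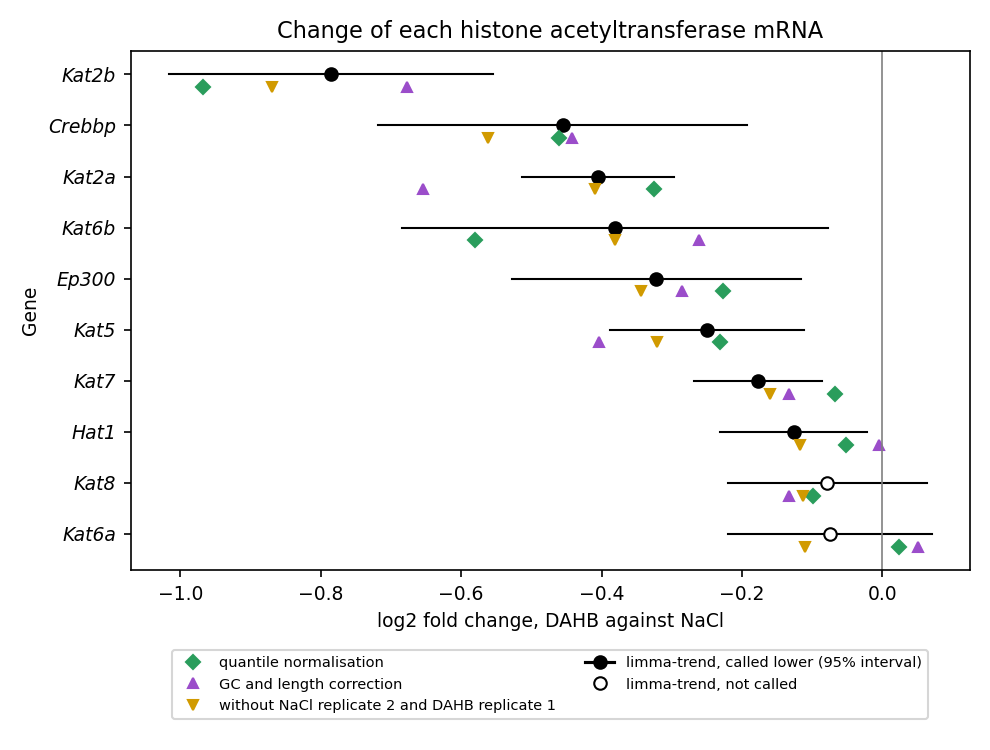
Log2 fold change of each acetyltransferase gene, DAHB against NaCl, with its 95% interval from limma-trend (filled: called lower; open: not called) and the values after quantile normalisation, after the GC and length correction and without NaCl replicate 2 and DAHB replicate 1. The values run from -0.79 for Kat2b to -0.07 for Kat6a, and Hat1 moves to -0.00 after the correction.

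The 4 members with the longest exonic sequence, Ep300, Crebbp, Kat6a and Kat6b, were each highest within their group in NaCl replicate 2 and in DAHB replicate 1. The same 2 libraries were highest for Kat2b, with 4867 exonic bases. Kat7, which is longer at 5536 bases, was highest in DAHB replicate 2 instead of DAHB replicate 1. In these 2 libraries the deviation from the group mean rose with exonic length over 10188 genes, by 0.03 on the log2 scale per doubling in each, whereas the slopes of the other libraries were between -0.03 and -0.01. Without both libraries 9 of the 10 members were called lower, Kat6a among them (log2 fold change -0.11, adjusted p = 0.0350), with Crebbp at -0.56 and Ep300 at -0.34. That comparison was added after seeing the data. Leaving out the highest DAHB library of a gene lowers its DAHB mean, and Kat6a also passed without DAHB replicate 1 alone. After the GC and length correction, with all libraries kept, Kat6a was at 0.051 (limma-trend, adjusted p = 0.437) and Kat6b was not called (0.0893). Ep300 and Crebbp stayed called lower in that fit (adjusted p = 0.00151 and 0.000809). It corrects for GC content and length together, so the part of exonic length alone in these calls was not tested.

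The ratio between paralogues needs no scaling between libraries, but it keeps any effect of GC content or exonic length. After the correction for these, Kat2a and Kat2b had nearly equal log2 fold changes, -0.65 and -0.68. The normalised counts of Kat2a over those of Kat2b, not divided by length and so for comparing libraries and not genes, gave 5.39, 5.30 and 5.58 with NaCl and 6.17, 8.18 and 6.995 with DAHB. All DAHB ratios were above the NaCl ratios; the difference of 0.38 in log2 ratio gave p = 0.10 in a two-sided exact permutation test, the smallest that 3 against 3 can give, and 0.30 adjusted over the 3 pairs. For Ep300 over Crebbp the ratios were 2.83, 3.03 and 3.18 with NaCl and 2.96, 3.17 and 3.86 with DAHB, and for Kat6a over Kat6b 9.33, 10.1 and 13.3 against 13.2, 13.6 and 13.3. Both overlapped between the groups (exact permutation p = 0.50 and 0.30, adjusted 0.50 and 0.45).

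**Figure D3:**
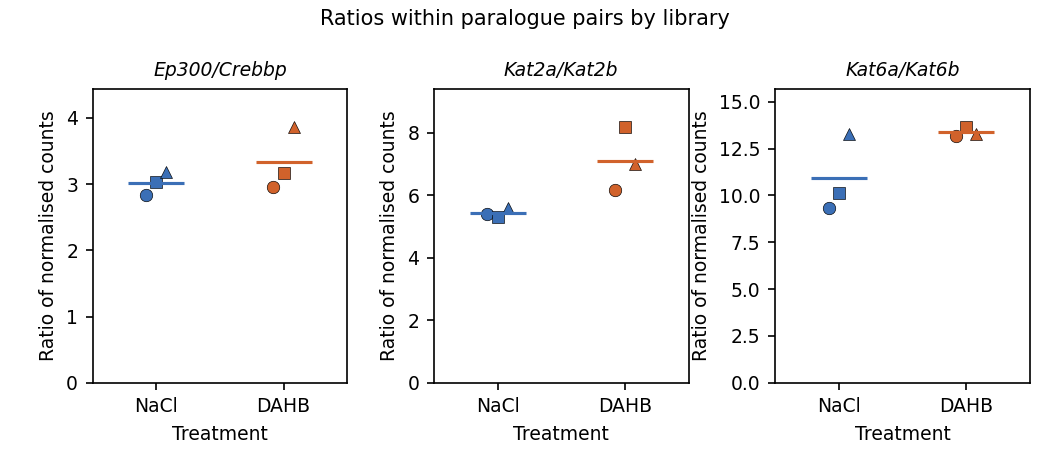
Ratio of normalised counts within each paralogue pair, by library and treatment, with shapes for replicates and lines for group means. The Kat2a to Kat2b ratio lies between 5.30 and 5.58 with NaCl and between 6.17 and 8.18 with DAHB.

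Related genes were taken from 10 lists of 146 genes in all: subunits and partners of these enzymes, other acetyltransferases, acetyl-CoA supply genes, acetyl-lysine readers, and deacetylases and sirtuins. Of these 146 genes, 84 were called lower and 24 higher, with a median log2 fold change of -0.22. These are 57.5% and 16.4%, against 29.1% and 29.4% of all genes tested. Among genes in the members' range of level the shares were 40.7% and 25.8%. By list, the share called lower ran from 22.2% of deacetylases and sirtuins to 84.6% of other acetyltransferases. Of 25 SAGA and ATAC subunits, 13 fell and 4 rose. The histone fold subunit gene Taf9 fell from 135 ± 12.4 to 63.2 ± 18.2 (log2 fold change -1.11), and the genes of the adaptor Tada2b and the core subunit Tada1 fell (log2 fold changes -0.74 and -0.58). Supt3, a SAGA core subunit gene, rose from 305 ± 17.3 to 538 ± 56.1 (0.81).

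Of 17 TIP60 complex subunits, 11 fell and none rose (1 rose after quantile normalisation and 1 after the GC and length correction). Epc1, a scaffold of the catalytic module, fell from 687 ± 31.8 to 371 ± 41.0, and its paralogue Epc2 from 1401 ± 66.4 to 929.8 ± 66.1. Falls of -0.56 and -0.54 on the log2 scale were found for Morf4l2 and the bromodomain subunit gene Brd8. Of 11 MSL and NSL subunits, which work with Kat8, 9 fell and 1, Phf20, rose from 1435 ± 59.4 to 1776 ± 19.6. Msl1, the scaffold of the MSL complex, fell from 3713 ± 179.6 to 2442 ± 218, Msl3 by a log2 fold change of -0.59, the NSL scaffold gene Kansl1 by -0.46 and Hcfc1 by -0.46. Kat8 was not called while most of its partners fell; the difference between them was not tested.

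Of 9 partners of Kat6a, Kat6b and Kat7, 7 fell and none rose, with a median log2 fold change of -0.51. The scaffold gene Brpf3 fell from 422 ± 45.6 to 208 ± 29.3 (-1.02), Jade3 from 1068 ± 29.7 to 607 ± 32.5 (-0.81) and Jade1 from 1701 ± 50.4 to 1048 ± 37.2 (-0.70). Brd1, another scaffold, fell as well (log2 fold change -0.58). BRPF and JADE proteins choose between histone substrates for this branch of the family.

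Around Hat1, 5 of 8 partner and histone chaperone genes fell and 2 rose. The H3 and H4 chaperone gene Asf1a fell from 3031 ± 41.2 to 1893 ± 148, whereas its paralogue Asf1b rose from 1956 ± 54.1 to 2624 ± 70.3. Ipo4, which imports newly made histones, fell (log2 fold change -0.61), and Chaf1b, a subunit of a replication-coupled assembly factor, rose by 0.39. After the GC and length correction 3 of the 8 fell. Of 12 factors that recruit or work with p300 and CBP, 8 fell and none rose; 5 fell without NaCl replicate 2, and 1 rose without DAHB replicate 2 or 3, after quantile normalisation and after the GC and length correction. Crem, a transcription factor gene of the CREB family, fell from 4537 ± 269 to 1874 ± 264 (-1.28), Creb1 by -0.38, the arginine methyltransferase gene Carm1 by -0.36 and the CREB coactivator gene Crtc2 by -0.30.

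Other acetyltransferases showed the same direction: 11 of 13 fell and none rose. Gtf3c4 fell from 3109 ± 130.1 to 1958 ± 100.8, the ATAC subunit gene Kat14 from 1794 ± 21.5 to 1287 ± 45.1, the cohesin acetyltransferase gene Esco2 by a log2 fold change of -0.72 and Clock by -0.45. Of 15 genes that make or move acetyl-CoA, 8 fell and 5 rose (53.3% and 33.3%, against 29.1% and 29.4% of all genes tested). Dld, a shared dehydrogenase subunit gene, fell from 9125 ± 272 to 5531 ± 162 (-0.72), the pyruvate carrier gene Mpc2 by -0.66 and the pyruvate dehydrogenase component gene Pdhx by -0.62, while the carnitine acetyltransferase gene Crat rose from 213 ± 37.9 to 369 ± 23.5 (0.80). Both cytosolic and nuclear sources of acetyl-CoA, named after their values were seen, moved: Acly, the ATP citrate lyase gene, fell (log2 fold change -0.48) and Acss2, an acetyl-CoA synthetase gene, rose by 0.61.

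Of 24 readers of acetyl-lysine, 13 fell and 2 rose, and the 4 largest changes were falls in Trim24, Atad2b, Brwd1 and Pbrm1, by log2 fold changes of -0.60, -0.54, -0.54 and -0.50. The enzymes that remove acetyl groups were distributed differently: of 18 histone deacetylases and sirtuins, 10 rose and 4 fell, with a median log2 fold change of 0.28; without NaCl replicate 2, 2 fell. Hdac1 rose from 8766 ± 336 to 15869 ± 302, Sirt4 and Hdac5 rose by 0.58 and 0.52, and Sirt1 fell from 1865 ± 37.5 to 756 ± 48.5. The call on Sirt4 was lost after quantile normalisation (adjusted p = 0.0714). The difference between the writers and the removers as lists was not tested.

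**Figure D4:**
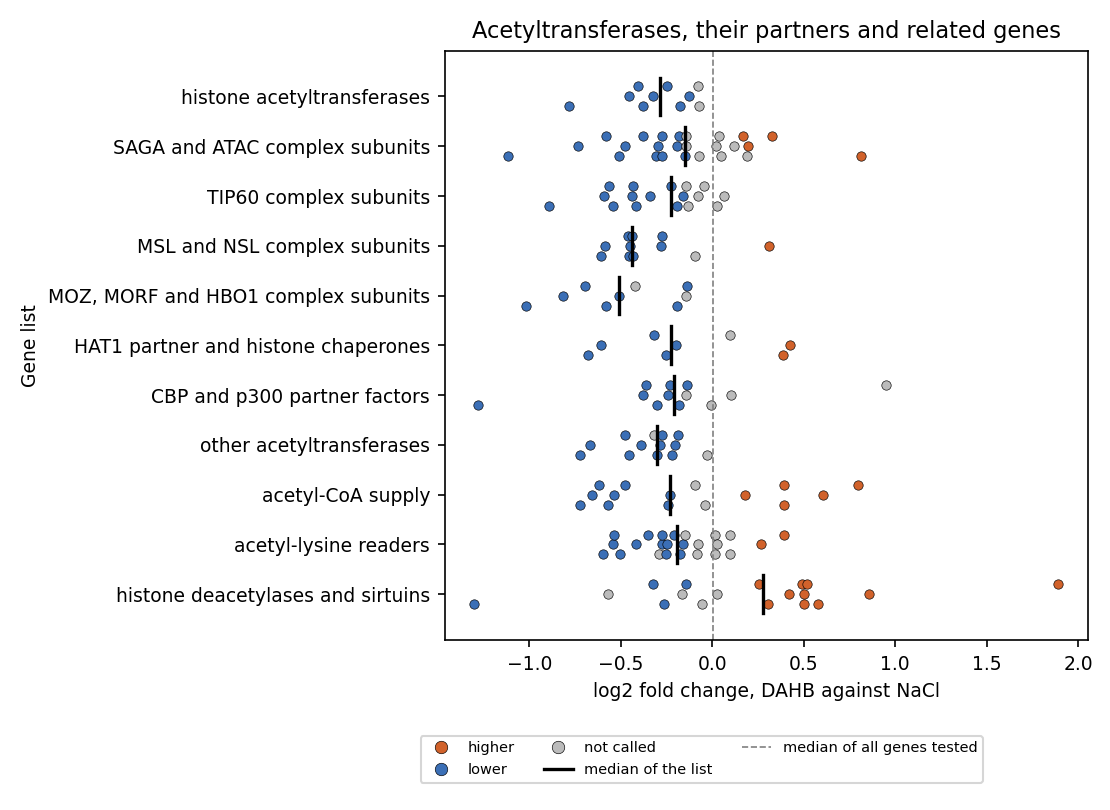
Log2 fold change, DAHB against NaCl, of the 10 acetyltransferases and of each gene in the 10 related lists; blue points were called lower, orange higher and grey not called, black bars are list medians and the dashed line is the median of all genes tested. List medians lie between -0.51 and -0.15 except for the deacetylases and sirtuins, at 0.28.

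The 3 genes most like Kat2b across the 6 libraries, out of 9846 with a mean of at least 100, were Zswim8, Aff4 and Mlst8, at distances of 0.07, 0.11 and 0.12 in log2 units. Zswim8 was at 1769.6 ± 82.5 with NaCl and 1057 ± 123 with DAHB, and the log2 fold changes of the 3 genes were -0.75, -0.74 and -0.71. The libraries fall into 2 groups, so likeness mainly reflects the size of the difference between them. No member rose, so no gene was matched to a rise.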

How the data were processed

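The submitters' processing notes name GRCm38 and, as tools, DESeq2, featureCounts 1.5.2, STAR 2.5.2b and Trimmomatic 0.36; the annotation, strand setting and low-count filter are not given in the sources used here. The deposited values are a signal that the authors normalised, namely gene counts over a size factor for each library. All values (100%) were multiples of 1 read to within 0.001, so the reads could be recovered. Library names in the labels tie columns to samples.

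A value of 10 or more in 3 or more libraries was required, which left 13804 genes. Values were transformed as log2(value + 1) and tested with limma-trend (limma 3.58.1, R 4.3.3). The test was two-sided, and p-values were adjusted by Benjamini-Hochberg over all genes kept at a threshold of 0.05. Fold changes are on that log2 scale, which understates those of low genes. Intervals of 95% are from the same fit. Paralogue ratios were compared by exact permutation. The procedure was tested on simulated data, with 50 genes changed at each size. It recovered 52% of changes of 1.25-fold, 88% of 1.5-fold and 98% of 2-fold, with 11 false calls among 180. The simulation held 12436 genes, few of them changed, whereas 58.5% of all genes tested were called in the data. Recovery with so large a share of genes changed was not tested, nor was that of changes under 1.25-fold, such as those of several members. Coordinates and exonic lengths are from GENCODE M21 (13859 identifiers found), promoter sequences from RefSeq (GRCm38.p6).

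Alternatives were pseudocounts of 0.5 and 10, no filter, a minimum of 50, quantile normalisation, equal library totals, a block on replicate number, leaving out each library, a GC and length correction (13776 genes), edgeR 4.0.16 and DESeq2 1.42.0 on the recovered reads, and, added after seeing the data, leaving out NaCl replicate 2 and DAHB replicate 1. On those reads edgeR called 4126 genes higher and 3958 lower.

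Members and lists were chosen with earlier results of these data known. All members are named, and up to 4 called genes per list, those with the largest absolute change whose higher group had a mean of 100 or more. A few others account for small counts. Same-group libraries differed beyond counting noise (chi-square over degrees of freedom 4.59 to 17.2); that does not show separate cultures or animals.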

Additional observations from a re-analysis of the deposited data

How the results depend on the processing

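No member was called higher under any of the 17 alternatives. Against 8 called lower, quantile normalisation gave 5, and DESeq2 and the GC and length correction gave 6 each. Leaving out 1 library gave 6 to 8. Kat2a, Kat2b and Kat5 were called lower in all 17, and Kat8 in none. Of 170 values of members, 149 kept their direction and side of the threshold. Only Kat6a turned, to 0.024 after quantile normalisation and 0.051 after the GC and length correction; the cause was not tested.

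The related genes gave 23 to 26 higher and 74 to 87 lower without 1 library, and all genes 3659 to 4134 higher and 3585 to 4190 lower. The summed level of the members ranged from 85.6% to 87.9% of the NaCl mean. Without 1 library, the log2 differences of the paralogue ratios ranged from 0.02 to 0.21 for Ep300 over Crebbp and 0.28 to 0.48 for Kat2a over Kat2b. For Kat6a over Kat6b they ranged from 0.20 to 0.46. The ratios were not recomputed after quantile normalisation or the GC and length correction. Quantile normalisation moved the median of all genes by -0.07 and gave 3716 higher and 4423 lower.

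Replicate numbers did not pair the samples (correlations of same-numbered deviations -0.04, -0.32 and 0.09). With the replicate number as a block, 7 members were called lower and none higher, 24 related genes higher and 82 lower, and 3931 genes higher and 3841 lower. Kat2b and Kat6b, with as few as 197 and 211 reads in a library, have the least depth.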
